A study of Mus musculus with 18 samples.

Results

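The genes described here are the 10 that carry out and control MHC class I antigen presentation. They were taken by symbol from the table of RPKM values (reads per kilobase of transcript, scaled to the mapped reads of the library) and are H2-K1, H2-D1, B2m, Tap1, Tap2, Tapbp, Psmb8, Psmb9, Psmb10 and Nlrc5, 10 of the 20298 genes listed, each found once. RNA was sequenced from Ly6C+ CCR2+ monocytes of C57BL/6 mice, enriched from bone marrow according to the series description and the methods, although the sample labels name liver. The WT mice were compared with DKI mice, which carry N-domain knockin mutations in both Stat5a and Stat5b and form STAT5 dimers but not tetramers. The mutations are in the germ line, so every cell of a DKI mouse carries them. Cells were left untreated (day 0) or cultured for 3 or 6 days in GM-CSF at 20 ng/mL, which gave 6 groups of 3 libraries from 3 independent experiments. The age of the mice and any pooling of animals for RNA-seq are not given in the sources used here.

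MHC class I molecules show peptides from inside the cell to CD8+ T cells. The peptides are cut by the proteasome, in which interferon-inducible subunits (Psmb8, Psmb9, Psmb10) replace the constitutive catalytic subunits (Psmb5, Psmb6, Psmb7) to form the immunoproteasome. The transporter of Tap1 and Tap2 moves them into the endoplasmic reticulum, where tapasin (Tapbp) helps to load them onto a heavy chain (H2-K1, H2-D1) paired with beta-2-microglobulin (B2m). Nlrc5 is a transcriptional activator of these genes, which are also classical targets of interferon signalling, in part through Irf1. Monocytes hold this machinery at rest, and cells that differentiate toward dendritic cells or macrophages continue to use it.

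On the mm10 (GRCm38) build, 7 of the 10 genes lie on chromosome 17 within 1.35 Mb of the MHC region. From one end to the other these are Tapbp (chr17:33919478-33929290), H2-K1 (chr17:33996012-34000619), Psmb9 (chr17:34182030-34187330), Tap1 (chr17:34187556-34197225), Psmb8 (chr17:34198195-34201454), Tap2 (chr17:34204479-34216321) and H2-D1 (chr17:35263094-35267497). B2m is on chromosome 2 (chr2:122147687-122153082), where it overlaps Patl2 and reads of the overlap could be shared between them, and chromosome 8 holds Psmb10 (chr8:105935728-105938392) and Nlrc5 (chr8:94434335-94527272). Psmb9 and Tap1 are divergent genes separated by 225 bases. H2-K1 and H2-D1 are close copies of each other and of the H2-Q and H2-T genes, and the treatment of reads that match several genes is not stated, so the levels of these genes are uncertain.

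Upstream sequences from RefSeq (GRCm38.p6) were found for 8 of the 10 genes. Those shown are the 250 bases before the annotated start of Psmb8, the 225 bases shared by Psmb9 and Tap1, and the 250 bases before Psmb10, which differ below in the direction of their values, and those before H2-D1 and B2m, the presenting molecule itself. Each is written 5′ to 3′ on the strand of the gene, with the shared interval on the Tap1 strand.
Psmb8, chr17:34197945-34198194, plus strand: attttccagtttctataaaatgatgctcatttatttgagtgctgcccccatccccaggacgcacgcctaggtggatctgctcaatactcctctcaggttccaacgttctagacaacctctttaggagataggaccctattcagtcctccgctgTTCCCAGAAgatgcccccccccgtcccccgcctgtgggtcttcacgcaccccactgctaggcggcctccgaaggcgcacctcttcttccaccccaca
Psmb9 and Tap1, chr17:34187331-34187555, plus strand: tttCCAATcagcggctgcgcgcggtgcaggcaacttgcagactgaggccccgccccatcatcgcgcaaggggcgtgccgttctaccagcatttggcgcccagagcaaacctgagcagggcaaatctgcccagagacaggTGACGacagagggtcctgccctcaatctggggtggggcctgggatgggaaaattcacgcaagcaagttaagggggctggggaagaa
Psmb10, chr8:105938393-105938642, minus strand: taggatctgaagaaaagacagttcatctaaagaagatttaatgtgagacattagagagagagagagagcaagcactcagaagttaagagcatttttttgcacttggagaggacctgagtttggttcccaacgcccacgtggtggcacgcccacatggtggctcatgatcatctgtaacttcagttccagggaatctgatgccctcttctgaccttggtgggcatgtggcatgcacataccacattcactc
H2-D1, chr17:35262844-35263093, plus strand: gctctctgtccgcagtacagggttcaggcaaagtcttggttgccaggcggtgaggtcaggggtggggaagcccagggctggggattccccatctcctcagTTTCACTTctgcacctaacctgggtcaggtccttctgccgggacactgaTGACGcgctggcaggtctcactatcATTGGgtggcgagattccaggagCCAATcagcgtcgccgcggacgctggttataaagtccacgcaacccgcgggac
B2m, chr2:122147437-122147686, plus strand: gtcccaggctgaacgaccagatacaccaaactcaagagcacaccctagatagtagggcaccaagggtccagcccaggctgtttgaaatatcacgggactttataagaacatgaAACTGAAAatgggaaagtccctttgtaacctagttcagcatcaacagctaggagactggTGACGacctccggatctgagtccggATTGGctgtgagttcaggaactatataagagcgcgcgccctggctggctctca

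Capitals mark matches on either strand to 4 motifs, which do not share letters in the windows shown. These are AANNGAAA (the core bound by interferon regulatory factors, chosen after the windows had been read), TTCNNNGAA (the gamma-activated site bound by STAT dimers, STAT5 among them), CCAAT (the Y box bound by NF-Y) and TGACG (the CRE-like site of the class I enhanceosome). Psmb8 held TTCNNNGAA, the only member of the 8 to do so, beside 7.02% of all 32851 windows of this length. B2m, H2-D1 and H2-K1 held AANNGAAA, which is in 21.3% of windows. CCAAT was found in 6 of the 8 members (33.8% of windows) and TGACG in 5 of the 8 (17.8% of windows). The Psmb10 window held no match to any of the 4. A match is a run of letters and not a measured binding site.

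The libraries had an estimated 29.5 to 43.2 M mapped reads (median 36.4 M), judged from the size of 1 read in single-exon receptor genes. The fewest reads per kilobase on a member, 177, were those of Nlrc5, so counting error was small beside the spread between libraries. The monocyte markers Ly6c2, Ccr2, Csf1r and Itgam were above a mean of 2 RPKM on day 0, while none of 7 hepatocyte genes was, and their summed level stayed at or below 0.634 RPKM in every library. The level of Stat5a or Stat5b does not check the genotype labels, since a knockin of point mutations need not change it.

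The DKI library of replicate 1 stood apart on both days of culture. It was the highest of the 6 libraries of its day for 8 of the 10 members on day 3 and for 8 on day 6, Tap2 and Psmb8 being the exceptions on both days. Its levels were 2.01 to 5.15 times the mean of the other DKI libraries on day 3 and 1.65 to 3.51 times on day 6. It exceeded the WT library of the same number 5.76-fold for H2-K1 on day 3 and 3.57-fold on day 6. The same DKI libraries had a summed level of 10 interferon-stimulated genes (Irf7, Isg15, Ifit1, Ifit2, Ifit3, Rsad2, Oasl2, Mx1, Usp18, Ifi44, a list added after the members' values were seen) of 4661 RPKM on day 3 and 2013 on day 6. The other DKI libraries had 530 and 120 RPKM on day 3 and 185 and 252 on day 6, and the WT libraries 27.0 to 93.8 and 41.9 to 62.4. The names of the replicate 1 libraries of days 3 and 6 carry an earlier year than the others, in WT as in DKI. Whether interferon signalling or that year plays a part in the values below was not tested, and for days 3 and 6 the genotype differences that turn on this library are given with and without it.

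**Figure D1:**
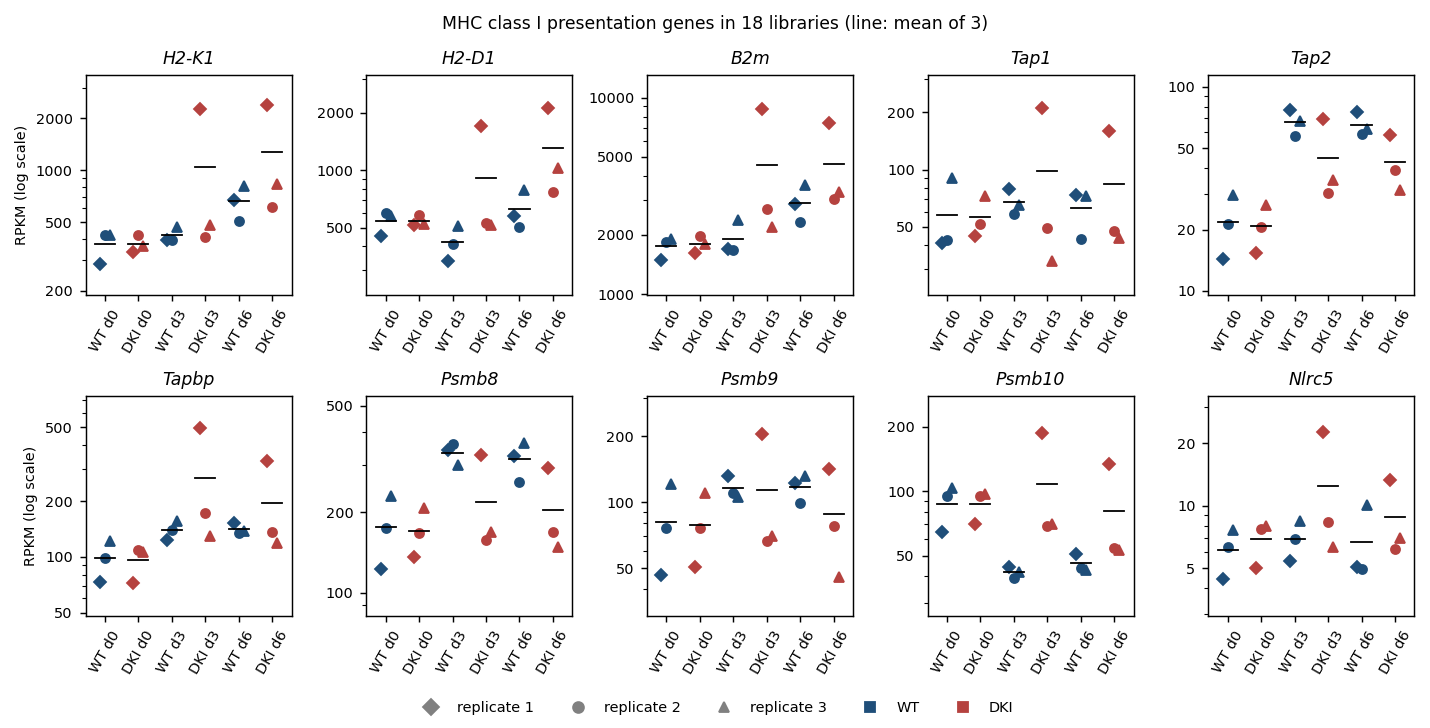
RPKM (log axis) of the 10 class I genes in each of the 18 libraries, by genotype and day, with the mean of 3 as a line and the replicate number as the symbol. DKI replicate 1 is the highest library of its day for 8 genes on days 3 and 6, from 4.70 times the next library for H2-K1 on day 3 to 1.08 times for Psmb9 on day 6, while Tap2 and Psmb8 of that library are near the WT values.

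On day 0 no class I gene passed the test between WT and DKI monocytes. In WT, B2m was by far the highest at 1749 ± 225 RPKM (SD, n = 3), followed by H2-D1 at 542 ± 77.1 and H2-K1 at 375 ± 77.9. Psmb8 had 175 ± 53.1 RPKM, Tapbp 98.2 ± 24.6, Psmb10 87.6 ± 20.6, Psmb9 81.4 ± 37.7, Tap1 57.9 ± 28.1, Tap2 21.7 ± 7.51 and Nlrc5 6.13 ± 1.60. Neighbours from Tapbp to Tap1 in this order differed by less than their SDs. The DKI means were within 0.15 of these on the log2(RPKM + 1) scale for all 10 genes, the largest difference being that of Nlrc5 (0.15, SE 0.24). None of the 10 was called, beside 0% of 9179 genes tested, where a call needs an adjusted p under 0.05 and a change of over 1.5-fold in limma's moderated test. Over all genes 44 had an unadjusted p under 0.05. No member had groups that did not overlap, beside 1.03% of genes. Libraries of the same number moved together on this day, as Psmb9 shows with 46.3, 76.6 and 121 RPKM in WT and 50.8, 76.2 and 110 in DKI.

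Individual class I genes changed in WT cells over 3 days with GM-CSF, and the changes went in opposite directions. No culture without GM-CSF was sampled, so the cytokine and the time in culture cannot be told apart. Tap2, a subunit of the peptide transporter, rose from 14.4, 21.2 and 29.4 RPKM on day 0 to 76.6, 57.5 and 67.8 on day 3. Every day 3 library was above every day 0 library, and the change of 1.64 (SE 0.26) on the log2(RPKM + 1) scale had an adjusted p of 0.0027. Psmb8 rose from 123, 174 and 229 RPKM to 343, 359 and 300.2, again without overlap (0.96, SE 0.24, adjusted p = 0.0153). Psmb10, a subunit of the same immunoproteasome, fell from 64.4, 94.5 and 104 RPKM to 44.2, 39.3 and 41.7, by 1.02 on the log2 scale (SE 0.20, adjusted p = 0.0059). Psmb9, the remaining inducible subunit, went from 81.4 to 116 RPKM on average with overlapping libraries (0.60, SE 0.33, adjusted p = 0.170). Its divergent neighbour Tap1 was at 67.3 RPKM on day 3 (0.30, SE 0.32, adjusted p = 0.458). Tapbp did not overlap between the days, 73.2 to 122 against 124 to 156 RPKM, but missed the threshold (0.53, SE 0.21, adjusted p = 0.0778).

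The chains of the presenting molecule and the activator gave no call in WT. The differences were 0.17 (SE 0.20) for H2-K1, −0.38 (SE 0.21) for H2-D1, 0.12 (SE 0.22) for B2m and 0.16 (SE 0.23) for Nlrc5. After quantile normalization B2m turned to −0.71 and was called lower on day 3 (adjusted p = 0.0211). In all, 3 of the 10 members were called between day 0 and day 3 in WT, beside 43.1% of 9938 genes, and 4 of 10 did not overlap, beside 61% of genes. Without replicate 2 of both groups Tap2 alone of the 10 was called, without replicate 3 of both groups Psmb10 lost its call (adjusted p = 0.0555), and without replicate 3 of WT day 0 Tap1, Psmb9 and Tapbp were called as well, giving 6. Bulk RNA cannot tell fewer cells of a type from less RNA per cell. The summed level of 7 neutrophil and precursor genes was 971 to 1313 RPKM in WT on day 0 and 108 to 746 on day 3. These genes did not move together. The mean of Mmp8 went from 91.3 to 199 RPKM, while Elane went from 329 to 7.07, Mpo from 294 to 2.26 and Camp from 179 to 27.8. Ltf, Ngp and Ly6g also had lower means on day 3. The part of these genes in the class I differences between these days was not tested.

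In DKI cells, no member was called over the same 3 days, beside 34.2% of 9922 genes, while 4697 of all genes had an unadjusted p under 0.05. The DKI values for Tap2 were 15.4, 20.5 and 26.2 RPKM on day 0 and 69.3, 30.2 and 34.8 on day 3, without overlap (1.01, SE 0.35, adjusted p = 0.0633). Tapbp went from 72.4, 109 and 106 RPKM to 494, 172 and 130 (1.23, SE 0.50, adjusted p = 0.0971), and B2m from 1627, 1977 and 1799.8 RPKM to 8725, 2701 and 2184 (1.05, SE 0.54, adjusted p = 0.168). These 3 were the members whose days did not overlap, beside 55.2% of genes. Replicate 1 was the highest library in each. Leaving replicate 1 out of both days turned the sign of the difference from positive to negative for H2-D1, Tap1, Psmb8, Psmb9, Psmb10 and Nlrc5, which had been at 0.16 to 0.60. Psmb10 was 70.1, 95.2 and 97.2 RPKM on day 0 and 187, 68.9 and 70.0 on day 3.

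**Figure D2:**
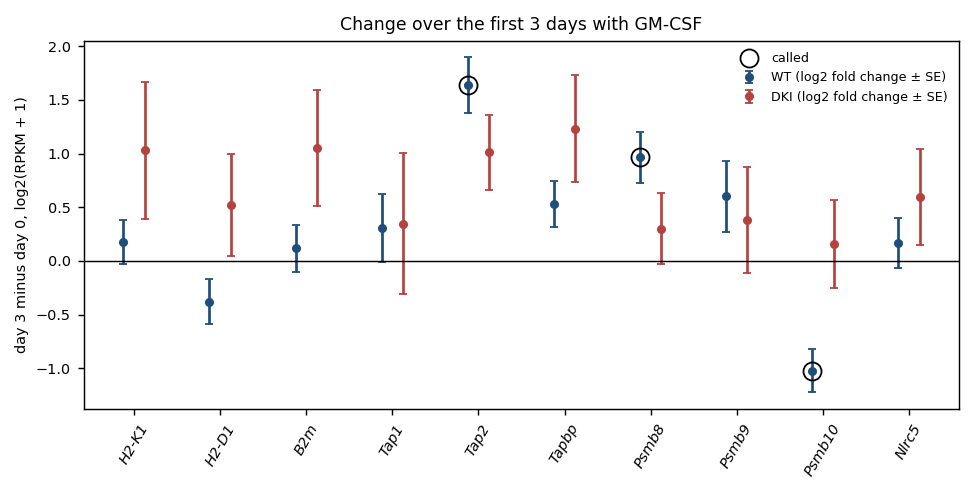
Difference between day 3 and day 0 on the log2(RPKM + 1) scale for each class I gene in WT and in DKI, with the standard error of the limma fit (3 libraries a group), circled where called. Tap2 and Psmb8 are circled above 0 and Psmb10 below 0 in WT, and no DKI point is circled.

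Between day 3 and day 6 no member passed the test in either genotype. None was called in WT, beside 0% of 9613 genes, or in DKI, beside 0% of 9540 genes, while 722 and 93 of all genes had an unadjusted p under 0.05. In WT the heavy chains and B2m had the largest differences. H2-K1 went from 391, 393 and 470 RPKM to 669, 505 and 813, without overlap (0.64, SE 0.22, adjusted p = 0.632). It was the single member that did not overlap, beside 14.3% of genes, and in DKI no member did, beside 4.43%. B2m and H2-D1 differed by 0.60 (SE 0.26) and 0.57 (SE 0.24).

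With all 3 libraries a group, none of the 10 members was called between DKI and WT on day 3 or on day 6, beside 7.42% of 9740 genes and 7.54% of 9842 genes. Over all genes 2583 had an unadjusted p under 0.05 on day 3 and 2778 on day 6. All genes had a median difference of −0.11 on day 3 and −0.17 on day 6 on the log2 scale, against which these differences can be read. The members had medians of 0.63 and 0.32, with 7 of 10 positive on each day. Without DKI replicate 1 the medians were 0.08 on day 3, with 6 of 10 positive, and −0.06 on day 6, with 5 of 10 positive. Libraries did not overlap for H2-D1 and Psmb10 on day 3, beside 36.3% of genes, and for Psmb10 and Tap2 on day 6, beside 37.2%.

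Among the chains of the presenting molecule, H2-K1 was at 391, 393 and 470 RPKM in WT and at 2253, 409 and 479 in DKI on day 3. The DKI replicates 2 and 3 lay at the WT levels, and the mean difference was 0.87 (SE 0.65, adjusted p = 0.437) with replicate 1 and 0.09 (SE 0.18) without it. H2-D1 was at 336, 411 and 511 RPKM in WT and at 1699, 526 and 518 in DKI, above every WT library (0.90, SE 0.50, adjusted p = 0.309, and 0.34, SE 0.22, without replicate 1). B2m was at 1689.7, 1677 and 2378 RPKM in WT and at 8725, 2701 and 2184 in DKI (0.98, SE 0.57, adjusted p = 0.330, and 0.36, SE 0.29, without replicate 1). On day 6 the same genes stood at 608 and 827 RPKM (H2-K1), 772 and 1032 (H2-D1) and 3056 and 3320 (B2m) in DKI replicates 2 and 3. Their WT ranges on that day were 505 to 813, 504 to 789 and 2316 to 3575 RPKM. H2-D1 had a difference of 0.96 (SE 0.41, adjusted p = 0.184), or 0.54 (SE 0.30) without replicate 1. H2-K1 had 0.71 (SE 0.52), or 0.13 (SE 0.30) without it, and B2m had 0.55 (SE 0.41), or 0.15 (SE 0.32).

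The transporter subunits had other patterns. Tap2 was at 76.6, 57.5 and 67.8 RPKM in WT and at 69.3, 30.2 and 34.8 in DKI on day 3, and at 75.1, 58.5 and 61.8 in WT and 57.8, 38.9 and 31.1 in DKI on day 6. Replicates 2 and 3 of DKI were below every WT library on both days, and replicate 1 was within the WT range on day 3 and below it on day 6. The differences were −0.66 (SE 0.32, adjusted p = 0.255) and −0.64 (SE 0.25, adjusted p = 0.158). Tap1 was at 78.9, 58.4 and 64.8 RPKM in WT and at 211, 49.1 and 32.9 in DKI on day 3. The DKI libraries thus lay on both sides of the WT range, and the mean difference was 0.07 (SE 0.65), or −0.72 (SE 0.22, adjusted p = 0.119) without replicate 1. Tapbp was at 124, 139 and 156 RPKM in WT and at 494, 172 and 130 in DKI (0.67, SE 0.49), with 0.10 (SE 0.19) without replicate 1. Nlrc5 was at 5.43, 6.94 and 8.44 RPKM in WT and at 22.7, 8.31 and 6.32 in DKI (0.58, SE 0.44), with 0.07 (SE 0.21) without it. On day 6 Tap1 was at 43.2 to 73.3 RPKM in WT and at 159.7, 47.2 and 43.8 in DKI, Tapbp at 135 to 153 and at 331, 137 and 119, and Nlrc5 at 4.97 to 10.1 and at 13.3, 6.18 and 7.02. Replicate 1 was above the WT range for each of these 3, and Tapbp alone had a DKI library below it. The day 6 differences were 0.17 (SE 0.52) for Tap1, 0.30 (SE 0.39) for Tapbp and 0.35 (SE 0.35) for Nlrc5, and −0.42 (SE 0.28), −0.15 (SE 0.18) and 0.04 (SE 0.31) without replicate 1.

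The 3 inducible proteasome subunits differed from each other. Psmb8 was at 343, 359 and 300.2 RPKM in WT and at 328, 158 and 169 in DKI on day 3, and at 324, 259 and 364 in WT and 293, 169 and 149 in DKI on day 6. DKI replicates 2 and 3 were again below every WT library, at −0.69 (SE 0.31, adjusted p = 0.224) and −0.68 (SE 0.30, adjusted p = 0.195) for the group. Psmb9 was at 131, 110 and 106 RPKM in WT and at 204, 66.4 and 70.0 in DKI on day 3, and at 123, 98.8 and 131 in WT and 142, 77.7 and 45.6 in DKI on day 6. With all 3 libraries its differences were −0.23 (SE 0.44, adjusted p = 0.778) and −0.55 (SE 0.40, adjusted p = 0.405). Psmb10 was at 44.2, 39.3 and 41.7 RPKM in WT and at 187, 68.9 and 70.0 in DKI on day 3, so each DKI library was above each WT library (1.19, SE 0.39, adjusted p = 0.122). On day 6 it was at 51.1, 43.7 and 42.9 in WT and at 134, 54.3 and 53.0 in DKI (0.66, SE 0.37, adjusted p = 0.287, and 0.23, SE 0.16, without replicate 1). Psmb10 in DKI replicates 2 and 3 lay below the mean of 87.5 RPKM that DKI cells had on day 0.

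Without DKI replicate 1, 4 of the 10 members were called on day 3, beside 7.36% of 9711 genes. Tap2 (−1.02, SE 0.16, adjusted p = 0.0270), Psmb8 (−1.02, SE 0.15, adjusted p = 0.0227) and Psmb9 (−0.75, SE 0.15, adjusted p = 0.0428) were lower in DKI, and Psmb10 (0.72, SE 0.12, adjusted p = 0.0270) was higher. On day 6 none was called without it, beside 2.56% of 9799 genes, where Tap2 had −0.88 (SE 0.20, adjusted p = 0.0731), Psmb8 −0.98 (SE 0.23, adjusted p = 0.0781), Psmb9 −0.96 (SE 0.28, adjusted p = 0.116) and Psmb10 0.23 (SE 0.16, adjusted p = 0.422). Those fits hold 2 DKI libraries, and the library was singled out by its levels of these same genes. The calls therefore describe the remaining 5 libraries of a day and are not independent of that choice. WT replicate 1 was kept in them, and on day 3 it was the highest WT library for Tap2, Psmb9 and Psmb10. Within pairs 2 and 3 the day 3 differences were −0.90 and −0.94 for Tap2, −1.18 and −0.83 for Psmb8, −0.72 and −0.59 for Psmb9 and 0.80 and 0.73 for Psmb10. In the fit over all 18 libraries Psmb10 was called on day 3 with every library included (adjusted p = 0.0435).

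**Figure D3:**
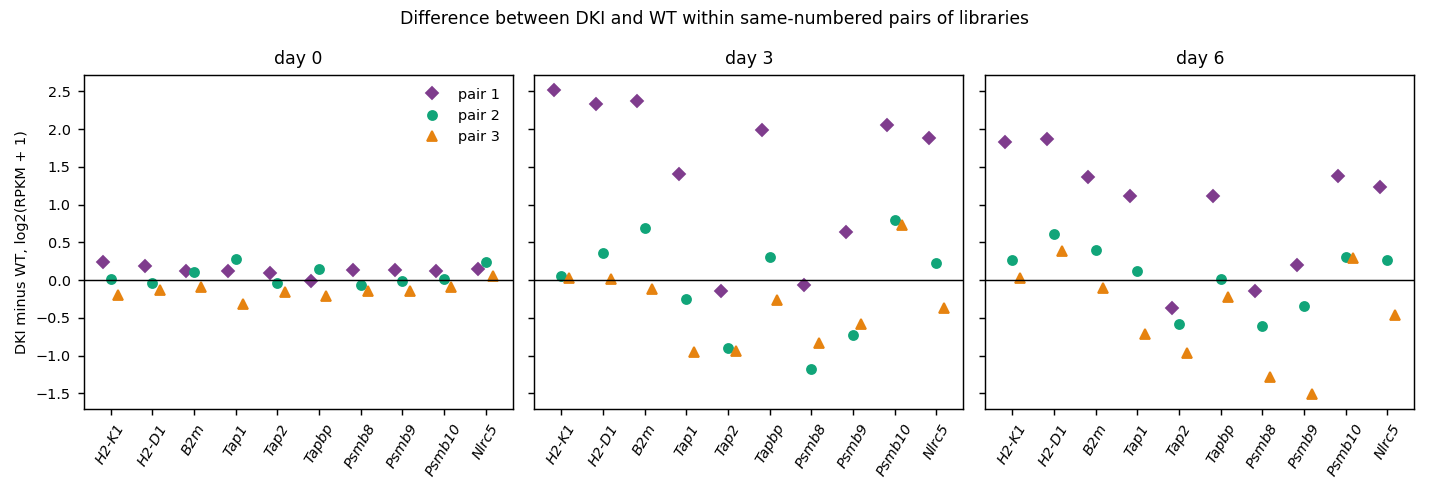
Difference between DKI and WT on the log2(RPKM + 1) scale within each same-numbered pair of libraries, by gene and day. Pair 1 is the highest pair for all 10 genes on days 3 and 6, all 3 pairs are below 0 for Tap2 and Psmb8 and above 0 for H2-K1, H2-D1 and Psmb10 on those days, and pairs 2 and 3 are below 0 for Psmb9.

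Whether the genotype difference itself changed with time was tested as an interaction. No member was called between day 0 and day 3, beside 2.91% of 10212 genes, or between day 3 and day 6, beside 0% of 9985 genes, and 1606 and 89 of all genes had an unadjusted p under 0.05. The largest of the 10 between day 0 and day 3 was that of Psmb10 (1.18, SE 0.49, adjusted p = 0.264). With any 1 library left out, the count of members called in both tests was still 0.

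The inducible subunits were also set against the constitutive subunits they replace, since a ratio within a library does not depend on its scaling. None of Psmb5, Psmb6 and Psmb7 was called between genotypes on any day. The ratio of Psmb10 to Psmb7 ran from 0.295 to 0.452 in WT and from 0.592 to 2.36 in DKI on day 3, without overlap. On day 6 it ran from 0.418 to 0.626 in WT and from 0.636 to 1.65 in DKI, also without overlap. The mean log2 differences were 1.44 and 0.96. The ratio of Psmb9 to Psmb6 went the other way on day 6, from 0.965 to 1.45 in WT and from 0.355 to 0.926 in DKI, by a mean log2 difference of −1.10. Psmb6 itself was at 84.5, 102 and 90.8 RPKM in WT and at 153, 123 and 128 in DKI on that day, without overlap though not called (0.54, SE 0.17, adjusted p = 0.0953), while Psmb9 of DKI replicate 1 was above every WT library. In DKI replicates 2 and 3 the ratio of Psmb10 to Psmb7 was 0.592 and 0.670 on day 3 and 0.636 and 0.811 on day 6. Each of these 3 differences had p = 0.1 in a two-sided exact permutation test, the smallest that 3 against 3 libraries can give, and 0.3 after adjustment over the 9 ratios and days. On day 3 the ratio of Psmb9 to Psmb6 overlapped, from 0.876 to 1.32 in WT and from 0.377 to 1.47 in DKI (p = 0.5 in the same exact permutation test), with DKI replicate 1 above every WT library and replicates 2 and 3 below. The ratio of Psmb8 to Psmb5 overlapped on every day, at 7.94 to 12.0 in WT and 4.38 to 18.5 in DKI on day 3, where DKI replicates 2 and 3 had 4.38 and 5.01, and at 7.39 to 13.2 in WT and 5.36 to 14.0 in DKI on day 6. Psmb5 was at 17.7 RPKM in DKI replicate 1 and at 36.1 and 33.6 in replicates 2 and 3 on day 3.

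**Figure D4:**
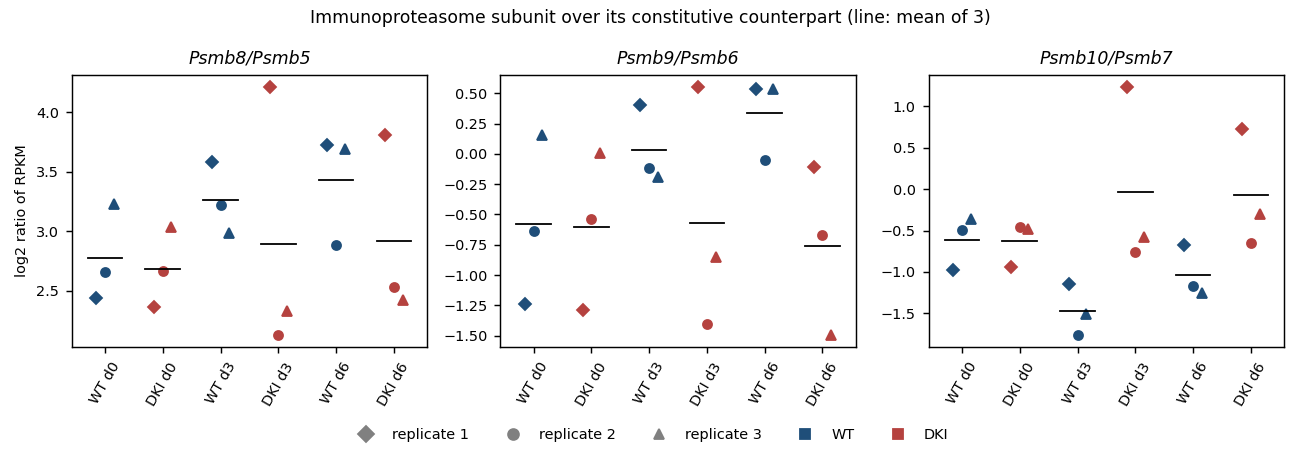
Log2 ratio of each inducible proteasome subunit to its constitutive counterpart (RPKM over RPKM) in the 18 libraries, with the group mean as a line and the replicate number as the symbol. Psmb10/Psmb7 is higher in every DKI library than in every WT library on days 3 and 6, and Psmb9/Psmb6 is lower in every DKI library on day 6.

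The rest of the class I pathway was followed in lists of its genes. The counts between genotypes are to be read beside 7.42% of all genes called on day 3 and 7.54% on day 6, or 7.36% and 2.56% without DKI replicate 1. Of the other class I and class I-like heavy chains, 0 of 13 tested were called on day 3 and 2 of 17 on day 6. There H2-T24 was higher in DKI (2.48, SE 0.39, adjusted p = 0.0239) and Cd1d1, which presents lipids, was lower (−1.24, SE 0.18, adjusted p = 0.0215). H2-Q7 was at 4.47, 5.83 and 5.67 RPKM in WT and at 86.1, 2.07 and 2.51 in DKI on day 3, with a difference of 0.64 (SE 1.25), and H2-Q6 at 7.46, 12.6 and 10.2 in WT and at 95.3, 1.76 and 2.09 in DKI, with −0.22 (SE 1.34). Replicate 1 was thus far above the WT libraries for both, and the other DKI libraries were below them. Without replicate 1, H2-Q6 (−1.90, adjusted p = 0.0163) and H2-Q7 (−0.94, adjusted p = 0.0388) were lower on day 3, and H2-T9 (−0.93, adjusted p = 0.0489) was lower on day 6, where it had −0.69 (adjusted p = 0.113) with all libraries. None of the 7 loading and trimming genes was called on either day, including the chaperones Calr, Canx and Pdia3 and the peptide trimmer Erap1 (0.49, SE 0.18, adjusted p = 0.143, on day 3). The tapasin relative Tapbpl had 0.28 (SE 0.49) on day 3, and −0.24 (SE 0.29) without replicate 1. Likewise 0 of 7 proteasome activator and assembly genes were called, with Psme1 at −0.07 (SE 0.33) and Psme2 at −0.28 (SE 0.28) on day 3. Without replicate 1 these were −0.44 (SE 0.16) and −0.58 (SE 0.17), also not called. The constitutive 20S proteasome had 0 of 14 called, although 13 of 14 differences were negative on each day, with medians of −0.22 and −0.24 beside the medians of all genes given above. Without replicate 1, 10 of 14 were negative on day 3 (median −0.07) and 12 of 14 on day 6 (median −0.28).

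Among the regulators of class I transcription, 1 of 21 was called between genotypes on day 3 and 3 of 21 on day 6, beside 7.42% and 7.54% of all genes. Jak2, the kinase that carries signals of GM-CSF and interferon-gamma receptors, was at 289, 321 and 294 RPKM in WT and at 62.5, 65.3 and 82.4 in DKI on day 3. It was lower in DKI on day 3 (−2.10, SE 0.18, adjusted p = 0.0048) and on day 6 (−2.38, SE 0.32, adjusted p = 0.0162) and was the gene called on both days. On day 6 Socs1, an inhibitor of JAK kinases (−1.64, SE 0.27, adjusted p = 0.0268), and Nfkb1 (−1.50, SE 0.25, adjusted p = 0.0268) were lower as well. Irf1, an activator of class I genes, was at 8.46, 16.8 and 10.6 RPKM in WT and at 78.5, 27.7 and 25.6 in DKI on day 3. Every DKI library was thus above every WT library, but the difference of 1.65 (SE 0.47, adjusted p = 0.0870) was not called, nor was that of 1.15 (SE 0.28, adjusted p = 0.0689) without replicate 1. On day 6 Irf1 was at 20.4, 16.4 and 13.3 RPKM in WT and at 51.8, 20.6 and 18.8 in DKI, with overlap (0.69, SE 0.40, adjusted p = 0.294, and 0.24, SE 0.21, without replicate 1). The RFX subunits Rfx5, Rfxap and Rfxank had differences between −0.27 and 0.04 on day 3 and between −0.56 and −0.09 on day 6, and none was called. Stat5a, which is not a class I regulator, was lower in DKI on day 3 (−1.67, SE 0.28, adjusted p = 0.0224) and on day 6 (−1.68, SE 0.32, adjusted p = 0.0357). Without replicate 1 Jak2 and Socs1 were called on both days, Nfkb1 missed the threshold on day 6 at a difference of −1.58 (adjusted p = 0.0550) with fewer libraries, and Stat5a was called on day 3 but not on day 6 (−1.54, adjusted p = 0.0798).

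MHC class II genes, which present peptides from outside the cell, gave a contrast in size. Between day 0 and day 3 all 10 listed rose in WT and in DKI, by medians of 6.23 and 4.15 on the log2 scale. In WT 10 of them were called and in DKI 9, beside 43.1% and 34.2% of all genes. The class I members had medians of 0.24 and 0.56. Without replicate 1 of both days the DKI median was −0.089 for the class I members, with 4 of 10 positive, and 4.53 for the class II genes. Between genotypes all 10 differences were negative on both days, with medians of −1.99 on day 3 and −1.81 on day 6 (−1.47 and −1.44 without DKI replicate 1). Of the 10, 1 was called on each day, beside 7.42% and 7.54% of all genes. These were H2-Ob on day 3 (−2.78, adjusted p = 0.0397) and H2-Oa on day 6 (−2.17, adjusted p = 0.0442). Ciita, the class II counterpart of Nlrc5, had −2.03 (SE 0.48, adjusted p = 0.0548) on day 3 and −2.26 (SE 0.79, adjusted p = 0.123) on day 6. Without replicate 1, Ciita (−1.49, adjusted p = 0.0274) and H2-Eb1 (−1.59, adjusted p = 0.0438) were called on day 3 and none of the 10 on day 6, beside 7.36% and 2.56% of all genes. H2-Ob (−2.46, adjusted p = 0.0736) on day 3 and H2-Oa (−1.99, adjusted p = 0.0998) on day 6 then missed the threshold. DKI replicate 1, the highest library for class I, had the lowest summed class II level of the DKI libraries, at 3921 RPKM on day 3 against 10860.3 and 13275. On day 6 it had 5495 RPKM against 18447 and 7947. Of 6 cross-presentation genes tested, Wdfy4, which dendritic cells need to present material from dead cells on class I, was lower on day 3 (−1.47, SE 0.25, adjusted p = 0.0254) and none was called on day 6. The shares of all genes called on these days were again 7.42% and 7.54%, also for the next list. Of the 10 added interferon-stimulated genes, none was called on day 3 (10 of 10 positive, median 3.60, and 9 of 10, median 2.52, without replicate 1) and Irf7, Oasl2 and Rsad2 were higher in DKI on day 6. Without replicate 1, 7 of these 10 were called higher on day 6, beside 2.56% of all genes, Irf7 by 3.84 (SE 0.44, adjusted p = 0.0269). The summed neutrophil level was 773 to 1394 RPKM in DKI and 108 to 746 in WT on day 3, and 485 to 866 and 102 to 499 on day 6. Of its genes, Mmp8 alone was at 372, 901 and 1113 RPKM in DKI and at 83.7, 231 and 283 in WT on day 3. Mmp8 and the low Ly6g (DKI mean 3.78 RPKM) did not overlap between genotypes on that day, while Ltf, Camp, Ngp, Elane and Mpo did. In DKI replicate 3 these last genes were at 19.6 RPKM (Ngp) or less. The summed level of the monocyte markers Ly6c2, Ccr2, Csf1r and Itgam was 1394 to 2239 RPKM in DKI and 758 to 1138 in WT on day 3, and 1346 to 1596 and 602 to 1068 on day 6. Neither sum overlapped between genotypes on day 3, and on day 6 the monocyte sum did not while the neutrophil sum did. Ly6c2 alone was at 775 RPKM in DKI replicate 1 against 49.5 and 73.8 in replicates 2 and 3 on day 3, and at 158 against 10.5 and 5.30 on day 6. Ccr2 went against the sum in that library, at 32.5 RPKM against 106 and 395 on day 3 and at 33.3 against 98.7 and 168 on day 6, below every WT library on both days, and its genotypes overlapped on both days. The part of these cell markers in the class I values was not tested.

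In WT between day 0 and day 3 the companion lists gave calls in both directions. Over all genes 43.1% were called, and the list counts below are to be read against that share. Of 12 other heavy chains, 4 were called higher on day 3, led by H2-M2 (5.64, SE 0.68, adjusted p = 0.0010) and Mr1 (1.99, SE 0.38, adjusted p = 0.0057), and 3 lower, among them H2-T24 (−1.39, SE 0.37, adjusted p = 0.0203). Calr (1.07, SE 0.20, adjusted p = 0.0049) and Psme2 (0.71, SE 0.22, adjusted p = 0.0366) rose, while the other genes of their lists were not called. Of 21 regulators 3 rose, Socs1 (5.12, SE 0.18) and Jak2 (2.60, SE 0.20) the furthest, and 8 fell, among them Irf1 (−1.42, SE 0.40, adjusted p = 0.0252) and the interferon-gamma receptor chain Ifngr1 (−2.13, SE 0.22, adjusted p = 0.0005).

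Across the 18 libraries the members did not form 1 block. The Pearson correlation of log2(RPKM + 1) over the 45 pairs of members had a median of 0.63 and ran from −0.26 to 0.98. Without DKI replicate 1 of days 3 and 6 the median was 0.31, with 11 of 45 negative. These points share libraries and their scaling, and the values are given as a description. The genes most like each member in the same measure included H2-T22 (r = 0.95), H2-T23 (0.94) and Il18bp (0.94) for H2-K1, and Il18bp (0.95) and Bst2 (0.95) for B2m. For H2-K1 and H2-T22 the value was 0.78 without those libraries. Tap2 was most like Necap2 (0.98, and 0.98 without them), Jaml and Dnaaf3, Psmb8 was most like Cmtm6 (0.95) and Psme2 (0.95), and Psmb10 was most like Calhm6 (0.97), Cemip2 and Anks1. Nlrc5 was most like Tnfsf10 (0.92, and 0.74 without them), and Psmb9 was most like Zfpl1 (0.94) and Usp21 (0.93).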

How the data were processed

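RNA-seq was measured in 18 libraries (WT and DKI, days 0, 3 and 6, n = 3). Per the methods, single-end reads had been mapped to mm10 by Subread and summed over each RefSeq gene by featureCounts, and the authors deposited the table as RPKM. Tool versions, strandedness and the treatment of multi-mapping reads are not given in the sources used here, and RPKM holds no read totals. RPKM depends on the library's other genes, so a few abundant transcripts can move all values.

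The 10 genes were read by symbol, and 20082 of the 20298 identifiers were found in RefSeq. Values were compared with limma 3.58.1 (R 4.3.3, eBayes with trend) on log2(RPKM + 1), fitted 1 day or 1 genotype at a time over all genes with a mean RPKM above 2 in a group compared. A fold change on this scale understates that of low genes. Calls needed a Benjamini-Hochberg adjusted p under 0.05 over all genes fitted and a change above 1.5-fold, which are limits the study set for its own test on read counts. The fitting code was also run on simulated data, in which both groups had the spread of the WT day 3 libraries. Those data held no outlying library such as DKI replicate 1, so they do not cover that case. Depth was estimated from the smallest values of 1160 receptor genes, and of 114 other low values 99 (86.8%) were whole within 0.05 of a read, where chance gives 10%. No libraries held identical values, and within-group correlations were 0.963 to 0.989.

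Named genes were all 10 members, Psmb5, Psmb6 and Psmb7, fixed partners of the members, up to 4 called genes of largest change per list, and for each member the most correlated genes. The members and lists were chosen with earlier results of these data known. Deviations from the group mean were related within a number between the genotypes on each day, with correlations of 0.865, 0.686 and 0.844 on day 0, 0.163, 0.369 and 0.246 on day 3, and 0.338, 0.405 and 0.413 on day 6. The pairing comes from the replicate numbers in the labels. Days 3 and 6 paired within a genotype (0.125 to 0.743), whereas days 0 and 3 did not (−0.208 to 0.180). Alternatives were another pseudocount, no filter, median centring, quantile normalization, a fit over all 18 libraries, the replicate block and leaving out libraries. The fits without DKI replicate 1 over the companion lists were added after the data were seen. Some listed genes are not reported here.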

Additional observations from a re-analysis of the deposited data

How the results depend on the processing

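The replicate block changed no call: 0 members were called between genotypes on each day and 3 in WT between days 0 and 3, as without it. Most values kept their direction and their side of the threshold. The count of members called between DKI and WT on day 3 was 1 (Psmb10) in the fit over all 18 libraries and ran from 0 to 4 when libraries were left out, 4 without DKI replicate 1. The WT count for day 3 against day 0 ran from 1 to 6, and the DKI count was 1 (Tap2) after quantile normalization and 2 (Tap2, Tapbp) in the fit over all 18 libraries. Quantile normalization turned B2m in WT, day 3 against day 0, to −0.71, which was called. The cause was not tested.

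Leaving out libraries turned the sign of small differences. Between DKI and WT on day 3, Tap1 ran from −0.72 to 0.60, Psmb9 from −0.75 to 0.055 and Nlrc5 from −0.068 to 1.06, and on day 6 Tap1 from −0.42 to 0.62, Tapbp from −0.15 to 0.58 and Nlrc5 from −0.10 to 0.75. In WT, day 3 against day 0, H2-K1 ran from −0.012 to 0.31, B2m from −0.046 to 0.25, Tap1 from −0.0091 to 0.69 and Nlrc5 from −0.020 to 0.31. In DKI, H2-D1 ran from −0.080 to 0.85, Tap1 from −0.59 to 1.08, Psmb8 from −0.18 to 0.60, Psmb9 from −0.42 to 0.90, Psmb10 from −0.46 to 0.47 and Nlrc5 from −0.10 to 1.04. On day 0 the log2 ratio difference ran from −0.097 to 0.025 for Psmb9/Psmb6 and from −0.039 to 0.041 for Psmb10/Psmb7. With 3 libraries a group, small differences could not be told from 0.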
